A study of Mus musculus with 21 samples.

Results

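The genes described here were gained when murine pancreatic ductal adenocarcinoma (PDAC) cells became resistant to the MEK inhibitor trametinib and were still gained after 12 passages without the drug. They were chosen by their measured RNA levels on the log2 scale, after adding a pseudocount of 1 to each normalized count. A gene was taken where its 6 resistant samples had a mean normalized count of at least 50 and where both the resistant and the P12 sample lay at least 1 log2 unit above the parental sample of the same line in at least 5 of 6 lines. Of 34478 genes in the table, 180 met these conditions, so the upper limit of 300 genes was not reached. A difference of at least 1 log2 unit from the parental sample of the same line is called a gain below. Because both gains were used to choose the genes, their sizes in resistant and P12 cells are given as a description.

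The 6 primary lines, numbered #3, #4, #6, #7, #9 and #10, were grown from pancreatic tumours of genetically engineered mice carrying Ptf1awt/Cre and Trp53loxP/loxP among their alleles, in which Cre under the Ptf1a locus removes Trp53 in pancreatic cells, and every state carries these alleles. Parental cells had never met the drug. Resistant cells were brought up by rising doses and were kept at 100x of their IC50 of trametinib, and P5 and P12 cells came from the adapted culture of the same line after drug withdrawal. RNA of 6 parental, 6 resistant, 6 P12 and 3 P5 samples (lines #3, #7 and #9) was sequenced, and the labels of P5 in lines #7 and #9 also give 12 drug-free passages where the methods of the study give 5. The 6 lines serve as replicates, since each gave 1 sample in a state, and the mice behind them are told apart only by the line numbers. No culture grown without the drug for as long as the adapted ones is analysed here, so the effects of the drug, of selection and of time in culture cannot be told apart.

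Trametinib blocks MEK1 and MEK2, the kinases that activate ERK, and cells that still grow in it have to do so with little ERK output. Pancreatic carcinoma cells can lie anywhere between an epithelial form, held together by E-cadherin, and a mesenchymal form, in which transcription factors of epithelial-mesenchymal transition (EMT) such as Snail and Prrx1 are on and the cells make collagens and other matrix proteins. A gene that comes on under a drug can go back off when the drug is removed or can stay on through cell divisions, and DNA methylation of CpG dinucleotides near the start of a gene is among the ways in which cells pass on such a state.

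Estimated from the spacing of low values, 24.1 to 42.7 M reads lay behind a sample, and 3 reads were worth 2.31 to 4.07 normalized counts, which covers counting error only. All 180 members passed the filter on low values used for testing, which asks for a value of 10 or more in 3 or more samples and kept 19300 genes. The ERK target Dusp6, a phosphatase that switches ERK off, was at 5249 to 9449 normalized counts in parental cells, at 4.49 to 681 in resistant cells and at 5098 to 16848 in P12 cells, and the drug-withdrawn samples did not overlap with the resistant ones. Among 21 MAPK output genes, 13 were called lower in resistant than in parental cells and 12 higher in P12 than in resistant cells, and 0 were members. Over all 19300 genes, 527 and 248 were called in these directions.

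All members together were higher in resistant cells by a median of 3.72 log2 units and in P12 cells by a median of 2.79, both over the mean of the 6 lines. The conditions on gain and level in resistant cells were met by 844 genes, of which the members made up 21.3%. Another 190 of these 844 genes had a P12 gain in at most 1 line and are called drug-only genes below, and 474 were in neither set. The mean gain of a member ranged from 1.38 to 11.003 in resistant and from 1.23 to 5.76 in P12 cells. In all 6 lines, 73 members were gained in resistant cells, 46 in P12 cells and 24 in both. At the threshold, the fifth largest P12 gain was 1.01 in Sep 04 (a symbol that reads as a date in the table), 1.02 in D030062O11Rik and 1.02 in Dact2, and just outside it stood Prcd at 0.999974, Lrp1 at 0.997 and Ntrk3 at 0.997.

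**Figure D1:**
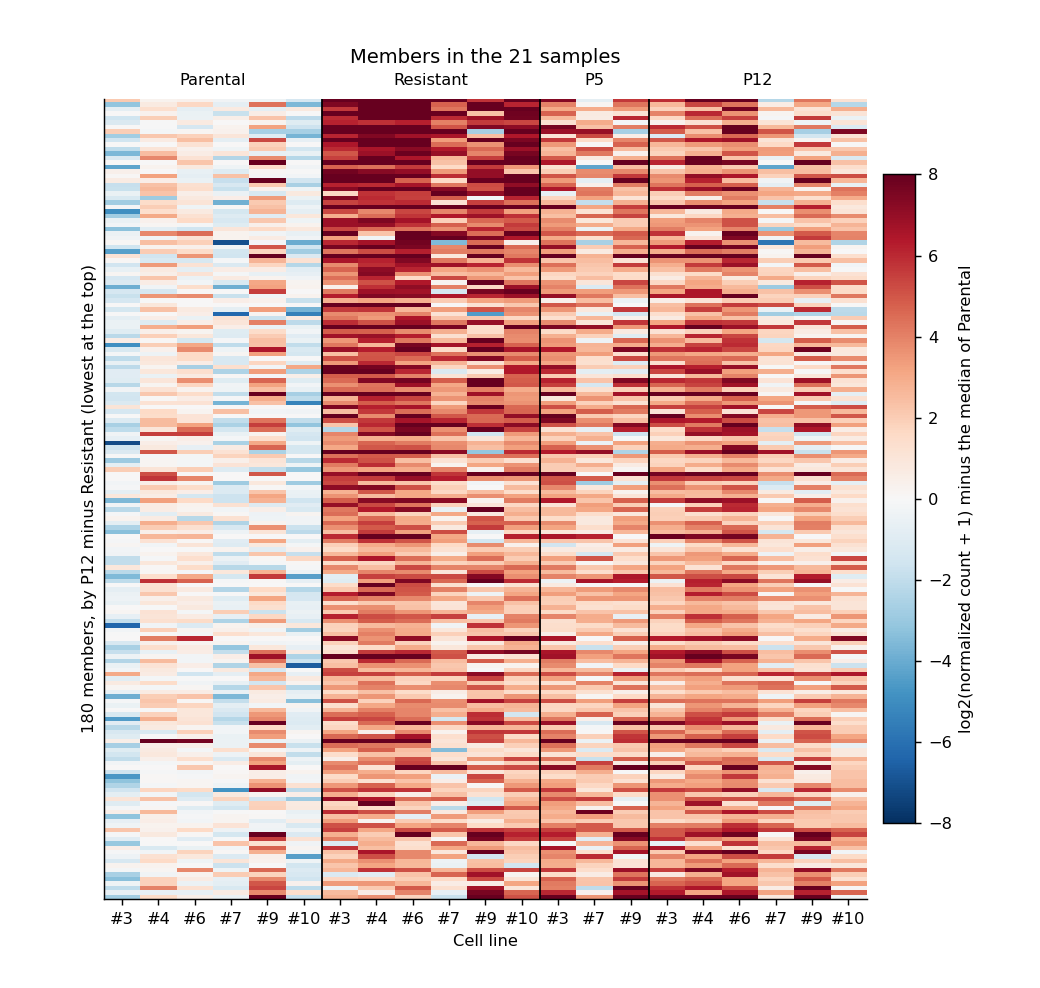
Each row is a member, each column a sample, and the colour gives log2(normalized count + 1) minus the median of the 6 parental samples. Rows are ordered by the mean P12 minus Resistant. The parental sample of line #9 is red in many rows, and P12 of line #7 is pale in many rows.

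The amount kept differed between members. P12 cells held a median of 72.1% of the log2 gain of resistant cells, with quartiles of 57.0% and 93.8%. In 31 members the P12 mean was above the resistant mean, whereas 44 members were lower in P12 than in resistant cells in all 6 lines and 84 in at least 5. Only 1 member, Loxl3, was higher in P12 in all 6 lines, and 5 were in at least 5. The median member lay 1.08 log2 units lower in P12 than in resistant cells (-1.08 as P12 minus Resistant), against a median of 0.02 over all genes tested. The median was -1.86 over the drug-only genes, which were chosen for lacking a P12 gain. Members were chosen for their level and gain in resistant cells and for their P12 gain. The fall to P12 and the share kept therefore follow in part from the choice and are a description.

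**Figure D2:**
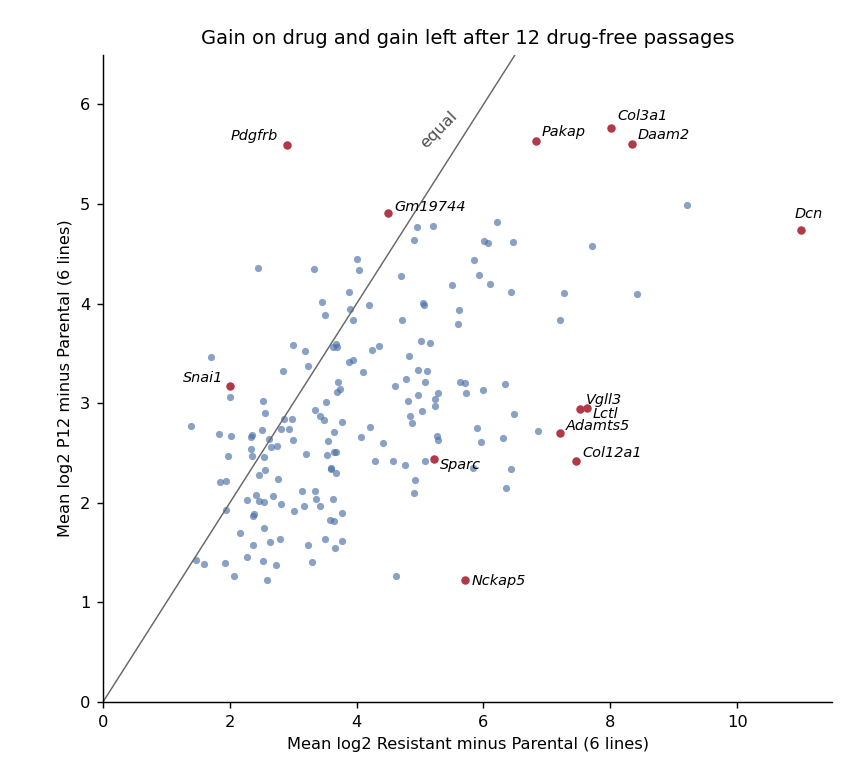
Each point is a member, with its mean log2 gain over 6 lines in resistant cells on the horizontal axis and in P12 cells on the vertical axis. Points above the line of equal gain, such as Pdgfrb and Snai1, were higher in P12 than in resistant cells, and Dcn and Nckap5 lie far below it.

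Whether genes found in some lines are also kept in another line was asked by leaving out each line in turn. The same conditions in the other 5 lines, with gains in at least 4 of 5, gave 203 genes without line #3, of which 172 (84.7%) had both gains in line #3. The background is the share with both gains in the left-out line among all genes at the required mean level in the other 5, and it was 11.2% in line #3. Without line #4 the numbers were 157 of 233 genes (67.4%) against 9.74% of the background genes, and without line #6 they were 173 of 207 (83.6%) against 9.01%. Without line #10, 167 of 269 genes (62.1%) had both gains there, against 6.64%. The shares were lower in the other two lines. Leaving out line #7 gave 387 genes, limited to 300, of which 107 (35.7%) had both gains in line #7 against 4.4%, and leaving out line #9 gave 395, limited to 300, of which 77 (25.7%) had both gains in line #9 against 3.77%. In each of the 6 lines the share among genes chosen without that line was above the background. The chosen genes had to start low in parental cells of the other lines, and the background genes did not. Both gains in a line also use the same parental sample. The distance from the background therefore follows in part from the choice.

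**Figure D3:**
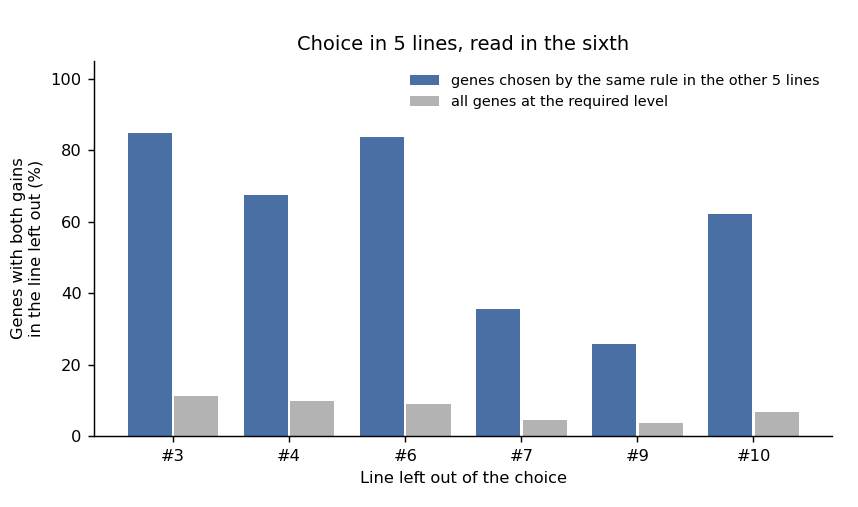
For each line, the blue bar gives the percentage of genes with both gains in that line among genes chosen in the other 5 lines, and the grey bar the same percentage among all genes at the required level. The blue bars range from 25.7% in line #9 to 84.7% in line #3.

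The P5 samples had no part in the choice of genes, though the parental samples they are compared with did. P12 samples, which also had a part in it, came from the same withdrawn culture of each line as P5. In line #3, 173 of 180 members were gained in P5 (96.1%), in line #7 142 (78.9%) and in line #9 100 (55.6%). Over all genes tested, the shares with a P5 gain in these lines were 23.2%, 13.8% and 13.2%. Over the drug-only genes they were 24.7%, 16.3% and 22.1%. The median P5 minus Parental over members was 4.47 log2 units in line #3, 2.45 in line #7 and 1.18 in line #9, whereas over the 190 drug-only genes it was 0.19, 0.11 and 0.26. All 3 lines had the P5 gain in 69 members (38.3%) and in 3 drug-only genes (1.58%), against 2.09% of all genes tested. Drug-only genes share the parental and resistant samples of their choice with the members and differ from them in the P12 condition. The P5 gains of both sets therefore follow in part from the choice and are not an independent test of it. P5 lay within 1 log2 unit of P12 of the same line in 145 members in lines #3 and #9 and in 102 in line #7. The share of all genes within this distance was not counted, so nothing particular to the members is read from these counts. The medians of P5 minus P12 over members in lines #3, #7 and #9 were 0.30, 0.38 and 0.03. With limma, 0 of all 19300 genes were called between P5 and P12 (background 0%), so the count of 0 members is not read as likeness. At an unadjusted p below 0.05 there were 0 members, against 0.674% of all genes, or 2 against 0.725% when the line was fitted as a block.

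The lines did not share equally in the gains. A P12 gain was missing in 3 members in line #3, 10 in line #4, 4 in line #6 and 9 in line #10, but in 32 in line #7 and 76 in line #9. The median P12 minus Parental over members was 4.08 in line #3, 3.51 in line #6, 3.12 in line #4, 2.42 in line #10, 1.96 in line #7 and 1.17 in line #9. Parental cells of line #9 had the highest parental level in 97 members (53.9%), compared with 20% of drug-only genes and 25.9% of genes tested. The median member was at 89.3 normalized counts in parental cells of line #9 and at 6.01 to 34.2 in those of the other 5 lines. In 68 members the parental sample of line #9 exceeded each other parental sample by at least 1 log2 unit. The choice of members used these parental values and lets 1 line miss a gain, so they are a description. E-cadherin (Cdh1), which holds epithelial cells together and is no member, was at 816 normalized counts in parental cells of line #9 and at 26491 to 53229 in those of the other lines.

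**Figure D4:**
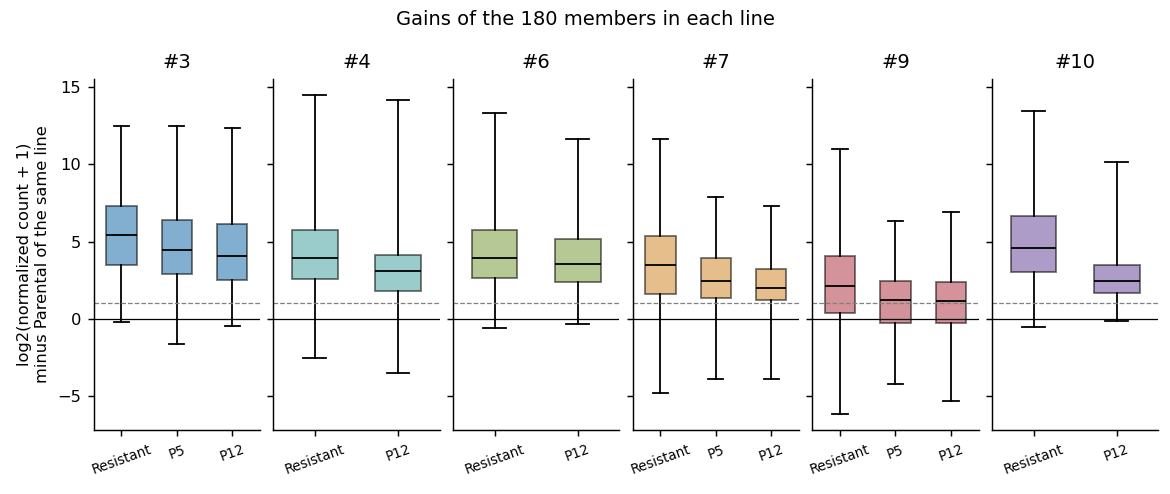
Boxes give the median and quartiles and whiskers the full range of the gains of the 180 members over the parental sample of the same line, in log2 units, for resistant, P5 (3 lines) and P12 cells. The dashed line marks a gain of 1, and the boxes of line #9 lie lowest in each state.

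Across all genes, limma called 2.57% of the 19300 genes higher in resistant than in parental cells (adjusted p below 0.01 and a log2 change above 1), and 84 members were among them, or 133 against 4.85% of all genes when the line was fitted as a block. For P12 cells, 4 members were called higher than in parental cells, where the background was 0.0259% or 5 genes, and 19 with the block, where it was 0.212%. Leaving out line #3, #4, #6 or #10 gave 37, 47, 47 and 40 members in resistant and 1, 2, 1 and 1 in P12 cells, and leaving out line #9 gave 10 in P12 cells. Both comparisons were used to choose the members, so nothing is read from these counts or from p-values of these comparisons given below. The 4 genes were Gm19744, Tenm3, Gm13230 and Platr16. They form 2 overlapping pairs. Gm19744 is a gene model of chromosome 8 that starts inside the first bases of Tenm3 and runs the other way, and Tenm3 encodes teneurin 3, a transmembrane protein of cell contacts in the nervous system. Gm13230 and Platr16 overlap on the same strand of chromosome 4, and another member, Gm13212, lies further along that strand. Reads of overlapping or near-identical genes there may have been divided between them, so their values are uncertain.

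Gm19744 was nearly silent in parental cells, with a lowest, median and highest value of 0.905, 1.62 and 11.02 normalized counts. In resistant cells it lay at 20.7, 106 and 141 and in P12 cells at 64.8, 104 and 216, with 119, 74.3 and 74.0 in P5 of lines #3, #7 and #9. No sample without prior drug reached the level of any adapted sample. P12 exceeded Parental by 4.91 log2 units (SE 0.52, adjusted p = 4.8e-05 in limma, higher in 6 of 6 lines) and P5 by 4.59 (SE 0.63, adjusted p = 0.0028), the only gene of all tested that was called higher in P5 (0.00518%). The P5 call was lost without line #3, #7, #9 or #10, when 0 members were called. Its partner Tenm3 was at 16.02, 175 and 833 in parental, 620, 5131 and 17685 in resistant and 1771, 3532 and 8124 in P12 cells, with P12 above Parental by 4.77 (SE 0.81, adjusted p = 0.0096). The P12 groups of both genes did not overlap with the parental ones. Since P12 minus Parental was used to choose both genes, its p-values and its sign in each line are a description. The call of Tenm3 was lost without line #3 (adjusted p = 0.101), #6 (0.090), #7 (0.0323), #9 (0.0126) or #10 (0.0510), and with no filter on low values (0.0111), upper quartile scaling (0.0121) or no trend (0.0127).

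Gm13230 was at 1.23, 6.63 and 58.4 in parental, at 161, 309 and 965 in resistant and at 135, 251 and 600 in P12 cells. Platr16 had the same order at lower levels, with 0, 3.85 and 21.7 in parental, 37.2, 65.8 and 157 in resistant and 26.9, 48.3 and 142 in P12 cells. In both, P12 of line #10 was the highest P12 sample and parental cells of line #9 the highest parental sample. P12 exceeded Parental by 4.64 in Gm13230 (SE 0.74, adjusted p = 0.0061 in limma) and by 3.98 in Platr16 (SE 0.66, adjusted p = 0.0074). This comparison was used to choose both genes, so its p-values are a description. Without a single line, apart from line #9, the adjusted p rose to between 0.0181 and 0.0685 over both genes. The call of Platr16 was also lost with a pseudocount of 0.5 (adjusted p = 0.0113) or 8 (0.0104) and with no filter (0.0108). Non-overlapping P12 and parental groups were found in 19 members, against 0.793% of the genes tested, and this too follows in part from the choice.

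Of the 8 members with the highest mean in resistant cells, 6 encode matrix proteins (Sparc, Col3a1, Dcn, Tnc, Col12a1 and Col16a1), and Heg1 and Gpm6a encode membrane proteins. Sparc, a secreted protein that binds collagen, was at 324, 5845 and 19716 normalized counts in parental, 10522, 201034 and 289234 in resistant and 1268, 27897 and 62164 in P12 cells. The lowest value in each state was that of line #7. P12 lay below the resistant sample by 2.78 ± 0.42 log2 units (SD, n = 6 lines) and above the parental one by 2.44 ± 1.40, with parental and P12 ranges overlapping. Collagen III (Col3a1), a fibril collagen of loose tissue, was nearly off in 5 parental lines and on in line #9, with values of 0.510, 5.23 and 14413. It reached 48157 at the median of resistant and 6586 at the median of P12 cells. The lines lay far apart, as P12 was at 4.76 in line #7 and 11.1 in line #10 and at 5011 to 29716 in the other 4 lines. P12 of line #9 was lower than its parental sample. Heg1, a membrane receptor of endothelial and heart development, was at 479.9, 846 and 1769 in parental, 1004, 10826 and 50056 in resistant and 1308, 3883 and 11397 in P12 cells. Gpm6a, a membrane glycoprotein of neurons, was listed at 0 in every sample of line #9 and at 4436 to 28798 in the other 5 resistant samples, with 0, 5.35 and 24.2 in parental and 0, 191 and 6303 in P12 cells. The parental and P12 ranges of both overlapped.

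Of 36 expressed collagen genes, 4 were members (Col3a1, Col16a1, Col12a1 and Col4a5) and 2 were drug-only genes. For this and the lists below, the share over all genes is 180 members in 19300 genes tested, and no list was tested against it. Of the 19300 genes, limma called 496 higher and 527 lower in resistant than in parental cells. It called 5 higher and 17 lower in P12 than in parental cells. limma called 6 of the 36 higher and 1 lower in resistant than in parental cells, and 0 in P12 against parental cells, with medians of 1.98 and 1.59 log2 units over the list beside 0.00 and 0.03 over all genes. Col12a1, which binds to collagen fibrils, was at 4.20, 70.8 and 1269.8 in parental, 1716, 16699.9 and 26313 in resistant and 12.1, 471 and 2621 in P12 cells. It had one of the lowest values of P12 minus Resistant, -5.04 ± 1.78. Col16a1 kept more, with a P12 gain in 6 of 6 lines, 18.1, 609 and 1569.8 in parental and 398, 2816 and 8455 in P12 cells.

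Among 76 expressed matrix glycoproteins and proteoglycans, the members were Dcn, Ogn, Wisp1, Tnxb, Sparc and Tnc. Decorin (Dcn), a small proteoglycan of collagen fibrils that fibroblasts make, had the highest gain of all members in resistant cells, 11.003 ± 3.09. Its parental values were 0.935, 4.03 and 19.8, its resistant values 268, 36728 and 65968 and its P12 values 0, 197 and 20386. P12 was listed at 0 in line #7 and at 10.6 in line #10, and 20386 was reached in line #6. P12 minus Resistant was -6.26 ± 4.11, the lowest of all members. Tenascin C (Tnc), a large matrix protein of wounds and tumours, kept a P12 gain in 6 of 6 lines, with 1.58, 339 and 1789.7 in parental, 28.2, 15207 and 72478 in resistant and 5.25, 2742 and 25872 in P12 cells. The parental and P12 ranges of both genes overlapped.

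Matrix enzymes took both courses. Adamts5, a protease that cuts aggrecan, was at 2.46, 14.9 and 71.3 in parental, 935, 2453 and 6665 in resistant and 9.99, 193 and 736 in P12 cells, which put P12 4.51 units below the resistant level (-4.51 ± 2.40). Loxl3, an enzyme that crosslinks collagen, was the member that was higher in P12 than in resistant cells in 6 of 6 lines, by 1.40 ± 1.18. Its parental values were 70.8, 124 and 3859.9, its resistant values 184, 934 and 1354 and its P12 values 534, 1562 and 4174. In line #9 all 3 later samples lay below the parental value. In the main limma fit, which does not pair the samples of a line, the difference between P12 and resistant cells had an adjusted p of 0.39. Integrins and laminins, the receptors and ligands of basement membranes, supplied 4 of 35 genes (Lama4, Itgb8, Itga11 and Itga2b), and Itgb8, whose integrin frees active TGF-beta, was at 13.97 at the median of parental, 659 of resistant and 407 of P12 cells.

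Among 86 expressed growth factors and receptor kinases, 3 were members (Pdgfrb, Ddr2 and Angpt1) and 3 were drug-only genes. Pdgfrb, the receptor for platelet-derived growth factor B and a marker of fibroblasts and pericytes, had the highest P12 minus Resistant of all members, 2.69 ± 5.24, a mean smaller than its spread. It was at 0, 6.23 and 2792 in parental and at 1.02, 67.6 and 17519 in resistant cells. In P12 cells it lay at 5161, 5969.96, 5314 and 5039 in lines #3, #4, #6 and #9 and at 11.2 and 4.99 in lines #7 and #10. P5 cells of line #3 were at 5853, those of line #7 at 79.5 and those of line #9 at 8117. P12 was above the resistant sample in lines #3, #4, #6 and #7 and below it in lines #9 and #10. Ddr2, a collagen-binding receptor kinase, was at 13269 in parental cells of line #9 and at 2.82 to 17.1 in the other 5, and its P12 values were 9.77, 776 and 12463. Line #9 itself had no gain in P12 of Ddr2. Tgfbr3, a co-receptor for TGF-beta, was at 0, 43.7 and 3699 in parental, 92.8, 887 and 1537 in resistant and 10.6, 1235 and 3595 in P12 cells, again with the highest parental value in line #9.

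Of 21 expressed EMT regulators, 2 were members, Prrx1 and Snai1, and 0 were drug-only genes. limma called 0 of the 21 higher and 1 lower in resistant cells, and 0 in P12 against parental cells. Prrx1, a homeobox factor of mesenchyme, was at 6.20, 27.9 and 7078 in parental, 66.0, 744 and 6664 in resistant and 15.5, 2228 and 7675 in P12 cells. The parental maximum was line #9 and the other 5 parental lines lay at or below 55.6. Snai1, the zinc finger factor Snail that represses Cdh1, was gained in P12 in 6 of 6 lines and was higher in P12 than in resistant cells in 5 of 6. Its values were 1.00, 21.2 and 289 in parental, 39.0, 59.99 and 750.1 in resistant and 48.1, 262 and 598 in P12 cells. P12 minus Resistant of Snai1 was 1.16 ± 1.37, with an adjusted p of 0.60 in the main limma fit, which does not pair the samples of a line.

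**Figure D5:**
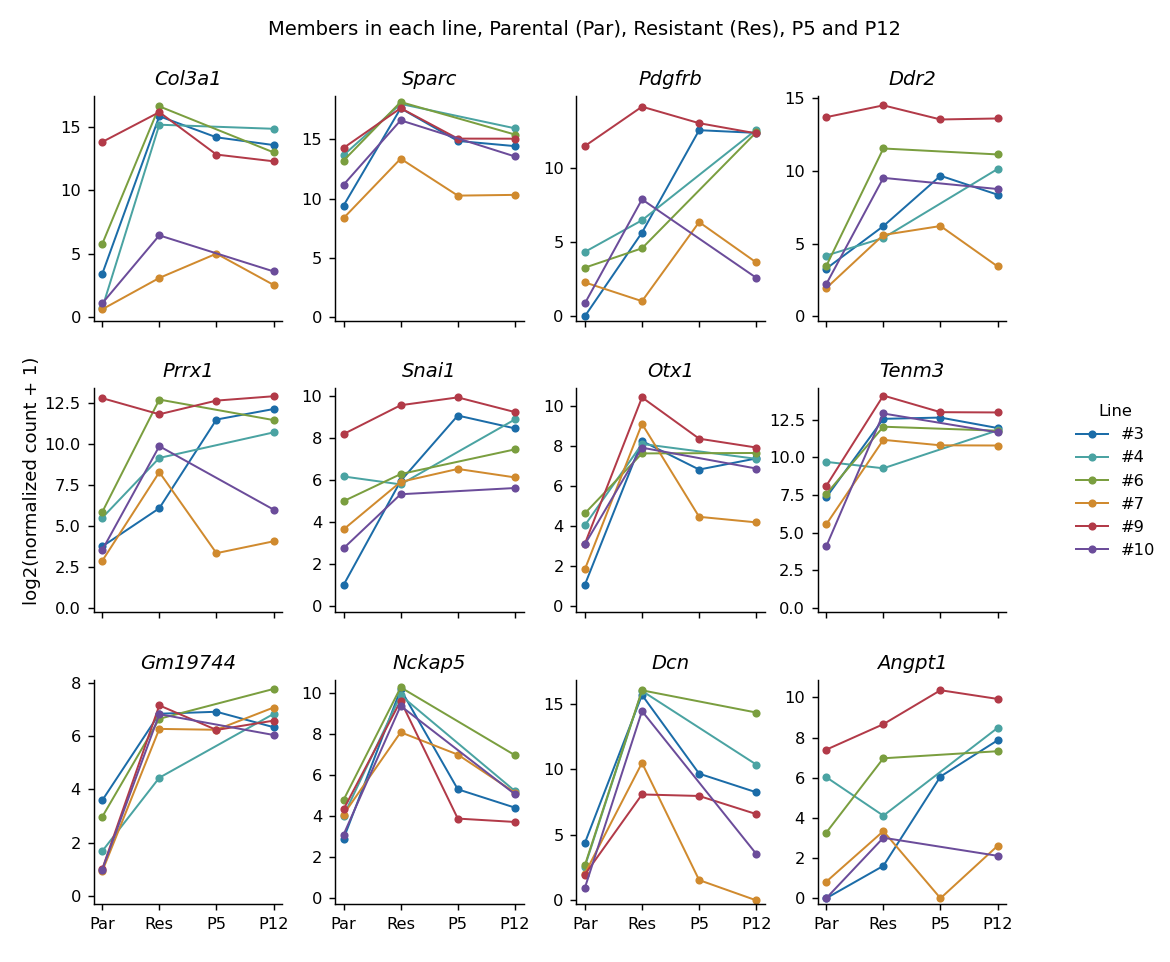
Each panel plots log2(normalized count + 1) of a member in parental, resistant, P5 and P12 cells, with one coloured line per cell line. Line #9 starts highest in Col3a1, Pdgfrb, Ddr2, Prrx1, Snai1 and Angpt1, whereas all lines start low in Gm19744 and Nckap5.

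Among 246 expressed developmental transcription factors, 6 were members, among them Otx1, Hoxa7, Lhx1, Mef2c and Foxd1. Otx1, a homeobox factor of the forebrain, was at 1.12, 7.69 and 24.2 in parental, 199.9, 293 and 1399 in resistant and 17.4, 167 and 245 in P12 cells. Line #7 was the lowest P12 sample of Otx1, and the other 5 were at 118 or above. Hoxa7 was on in parental cells of lines #4 and #6 and nearly off in the others, with 0, 327 and 1281 in P12 cells.

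Ligands were found in several families. Of 108 expressed cytokines, chemokines and receptors, 5 were members (Ccl2, Tnfsf13, Ccl7, Tnfrsf25 and Tnfsf18) and 1 was a drug-only gene. limma called 7 of the 108 higher and 8 lower in resistant than in parental cells. Ccl2, which draws monocytes, was at 1.66, 72.2 and 1102 in parental, 111, 2627 and 13000.4 in resistant and 136, 666 and 8514 in P12 cells. Its neighbour Ccl7, 8258 bases away on chromosome 11, was at 0, 1.36 and 48.1 in parental and 3.07, 111 and 319.95 in P12 cells. Both had a P12 gain in 6 of 6 lines, but the lowest P12 value of Ccl7 lies near 3 reads. Tnfsf13, the B cell factor APRIL, was at 9.47, 23.4 and 50.5 in parental, 69.2, 285 and 829 in resistant and 102, 401 and 1414 in P12 cells. Its parental range lay below the resistant and the P12 range, which overlap each other. It shares its strand and its bases with the readthrough gene Tnfsfm13, also a member, so reads may have been divided between them. P12 of Tnfsf13 exceeded Parental by 3.88 with an adjusted p of 0.015 in limma, which was 0.00086 when the line was fitted as a block. This comparison was used to choose the gene, so both p-values are a description.

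Angpt1, the ligand of the receptor Tie2, was higher in P12 than in resistant cells in 4 of 6 lines, with 0, 4.69 and 168 in parental, 2.06, 12.7 and 406 in resistant and 3.33, 196 and 973 in P12 cells. P5 was at 65.8 in line #3, listed at 0 in line #7 and at 1314.5 in line #9. Of 62 expressed genes of the TGF-beta and BMP pathway, 3 were members (Tgfbr3, Gdf6 and Inhbb). Inhbb, a subunit of activin B, was at 0, 14.5 and 140.03 in parental, 19.6, 565 and 2097 in resistant and 1.02, 106 and 553 in P12 cells. Of 64 axon guidance genes, 3 were members and 0 were drug-only genes. Sema3a, a secreted signal that repels axons, was at 47.5, 381 and 2905 in parental and 891, 2157 and 7877 in P12 cells, with line #9 again the highest parental sample.

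Several members outside these lists had a gain in every line. Daam2, a formin of the WNT planar polarity pathway, was at 8.89, 11.9 and 63.1 in parental and 3354, 6744 and 11836 in resistant cells. P12 was at 3109 to 14071 in lines #3, #4 and #6 and 22.6 to 965 in lines #7, #9 and #10. Afap1l2, an adaptor of SRC signalling, was at 6.89, 26.2 and 359 in parental, 1800.2, 2705 and 4589.96 in resistant and 90.5, 1426 and 7466 in P12 cells, and lines #7 and #9 had the lowest P12 values. B3galt1, a galactosyltransferase, was at 0, 0.505 and 13.3 in parental and 1.91, 95.8 and 388 in P12 cells. Resistant cells of line #9 were at 2.74 while the other 5 lay between 274 and 962. The value of 2.74 is under 3 reads, which were worth 3.75 in that sample. The lowest P12 value of 1.91 is under 3 reads too, which were worth 2.41 to 3.63 in P12 samples. The gains of B3galt1 at these values rest on very few reads. Pakap, which overlaps the member Palm2 on the same strand, was at 0, 0 and 34.5 in parental and 12.1, 262 and 1001 in P12 cells.

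Nnmt, a methyltransferase that uses up S-adenosylmethionine, was at 0, 2.49 and 19.3 in parental, 114, 1064 and 1877 in resistant and 3.09, 129.6 and 782 in P12 cells, with no P12 gain in line #9. Scn10a, a voltage-gated sodium channel of sensory neurons, was at or under 3 reads in every parental sample, with 1.06 in line #3 and 0 in the others. It was at 9.77, 84.8 and 229 in resistant and 0, 39.0 and 104 in P12 cells, where the mean was at least 13.9-fold above the level of 3 reads. P12 of line #7 was listed at 0 and the other 5 P12 samples lay between 27.8 and 104.

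The test between P12 and resistant cells called 4 members lower in P12 and 0 higher, against a background of 0.85% lower and 1.28% higher, and 16 lower and 0 higher when the line was fitted as a block, against 2% lower and 2.52% higher. At an unadjusted p below 0.05, 42 members were lower and 0 higher, against 9.84% and 9.96% of all genes. Without line #3, #4, #7 or #10 the count called lower was 2, 1, 2 and 2. Since resistant and P12 samples both entered the choice, these counts are not independent of it. Nckap5, a protein of microtubules, was at 6.46, 15.6 and 26.7 in parental, 273, 875 and 1252 in resistant and 12.2, 33.6 and 125 in P12 cells. All resistant samples lay above all P12 samples, by 4.49 log2 units on average (P12 minus Resistant -4.49, SE 0.56, adjusted p = 8.4e-05 in limma, lower in 6 of 6 lines). It was also the only member called between P5 and resistant cells (-4.18, SE 0.69, adjusted p = 0.0035), where the background was 0.0881% lower and 0.29% higher. That P5 call was lost without line #3, #4, #9 or #10, when 0 members were called.

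Neurl1a, a ubiquitin ligase, was at 3.69, 19.02 and 81.9 in parental, 448, 1715 and 2888 in resistant and 81.2, 92.1 and 201 in P12 cells. P12 minus Resistant was -3.66 (SE 0.64, adjusted p = 0.0021), and the call was lost without line #4 (adjusted p = 0.0166), #6 (0.0114) or #10 (0.0149). Nod1, an intracellular sensor of bacterial cell walls, was at 44.3, 87.3 and 114 in parental, 1217, 4619 and 10987 in resistant and 242, 781 and 2968 in P12 cells. Its 3 states differed from each other in steps, since all P12 samples lay above all parental samples and in each line below the resistant one. P12 minus Resistant of Nod1 was -2.62 (SE 0.57, adjusted p = 0.0086). Lctl, a glycosidase-like protein, was at 0, 0.889 and 3.15 in parental, 31.1, 578 and 2070.4 in resistant and 2.52, 8.30 and 330 in P12 cells, with -4.67 (SE 1.02, adjusted p = 0.0090). Leaving out line #3, #4, #7 or #10 took the adjusted p of Nod1 to between 0.0287 and 0.0502, and leaving out any line but #6 took that of Lctl to between 0.0118 and 0.0558. Both calls were also lost with no filter (adjusted p = 0.0126 and 0.0137) and with no trend (0.0110 and 0.0105), and that of Lctl with a pseudocount of 0.5 (0.0111) or 8 (0.0104). Vgll3, a cofactor of TEAD factors, had a P12 minus Resistant of -4.57 ± 2.52, with an adjusted p of 0.016 in the main, unpaired limma fit. It was at 7.72 in parental, 2183 in resistant and 62.7 in P12 cells at the median.

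Markers of other cells were read in the same samples, as each line could hold cells other than carcinoma cells. Of 10 fibroblast markers, 3 were members (Col3a1, Pdgfrb and Dcn). Their sum over the list was 122 to 24864 normalized counts in parental, 1919 to 577922 in resistant, 411 to 82974 in P5 and 252 to 153989 in P12 cells. Col1a2 was listed at 0 in the lowest sample of each of the 4 states and reached 2517 in parental, 174820 in resistant and 53107 in P12 cells, and Lum was at or below 1.75 in parental and P12 cells and reached 139 in resistant cells. None of the 8 epithelial, 7 leukocyte, 6 endothelial, 7 acinar or 6 neural and Schwann markers was a member. The leukocyte markers summed to 222 to 317 in parental, 219.7 to 2907 in resistant, 209.8 to 445 in P5 and 216 to 258 in P12 cells. Csf1r among them reached 39.7 in parental, 2530 in resistant and 49.5 in P12 cells, while the pan-leukocyte gene Ptprc was at 3.02 to 20.01 in all states. The endothelial markers summed to 42.0 to 168 in parental, 22.5 to 2756 in resistant, 59.5 to 178 in P5 and 66.4 to 237 in P12 cells. Tek, the Tie2 receptor, reached 15.8 in parental, 2512 in resistant and 9.31 in P12 cells and was the endothelial marker called in limma, higher in resistant than in parental cells and lower in P12 than in resistant cells, whereas Pecam1 stayed at 9.65 to 74.0. Acinar markers summed to at most 289 in parental, 556 in resistant and 949 in P12 cells, and neural and Schwann markers to at most 673, 1558 and 1816, with 0 called in either list. Epcam was listed at 0 in all samples but those of P5, where it reached 3.61, although keratins were abundant, so its zeros are not read as absence. Of 54 expressed keratin and epithelial junction genes, 10 were called lower in resistant and 2 in P12 than in parental cells. Over all 19300 genes tested, 527 and 17 were called lower. Among the 54, 0 were members, and this count was not tested against the share over all genes. In bulk RNA, more cells of a kind and more RNA per cell cannot be told apart, and the part of other cell types in the members was not tested.

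By annotation in GENCODE M21 (GRCm38), 178 members matched 1 gene each, and 161 of these are protein coding. Chromosome 11 held 22, chromosome 9 held 20 and chromosome 4 held 17, which are 1.58%, 1.98% and 1.57% of the expressed genes there. These are named because they held the most members. Among the others, the share ran from 0% to 1.55%. In all, 178 of 18393 matched genes tested were members. No share was tested against this, so no clustering is read from these counts. Of the 180, 78 belonged to at least 1 of the lists of roles. Pairs within 100 kb numbered 16, and 5 of them overlap. Such pairs were not counted among other genes, so nothing is read from their number. Among the pairs chosen for mention after their values were seen is that of Wt1, the Wilms tumour transcription factor, and its antisense gene Wt1os, which start 18 bases apart on opposite strands of chromosome 2. Wt1 was at 4.45, 41.0 and 949.7 in parental, 2.68, 6153 and 15898 in resistant and 7.81, 2068 and 8353 in P12 cells, and Wt1os at 0, 8.43 and 37.2, at 1.72, 185 and 916 and at 31.9, 210.1 and 260.2. Casp4 and Casp12, inflammatory caspases 8646 bases apart on chromosome 9, form another such pair.

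The first 300 bases of the longest transcript could be read for 178 members (98.9%). Their median ratio of observed to expected CpG was 0.53, with quartiles of 0.29 and 0.81, beside 0.74 for drug-only genes and 0.64 for all genes tested. A ratio above 0.6 was found in 79 members (44.4%), in 63.8% of drug-only genes and in 54.2% of genes tested. RefSeq promoters (GRCm38.p6) were at hand for 121 members (67.2%), too few for a share over promoters to be given. A CpG-poor and a CpG-rich start are shown by the 250 bases before the start of Col3a1 (chr1:45311288-45311537, plus strand) and Snai1 (chr2:167537945-167538194, plus strand), each 5′ to 3′ along its gene, with CpG dinucleotides in capitals.
Col3a1: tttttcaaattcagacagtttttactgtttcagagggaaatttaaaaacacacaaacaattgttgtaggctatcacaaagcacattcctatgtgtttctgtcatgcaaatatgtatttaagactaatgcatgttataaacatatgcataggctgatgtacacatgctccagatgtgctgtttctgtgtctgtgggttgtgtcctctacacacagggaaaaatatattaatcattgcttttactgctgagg
Snai1: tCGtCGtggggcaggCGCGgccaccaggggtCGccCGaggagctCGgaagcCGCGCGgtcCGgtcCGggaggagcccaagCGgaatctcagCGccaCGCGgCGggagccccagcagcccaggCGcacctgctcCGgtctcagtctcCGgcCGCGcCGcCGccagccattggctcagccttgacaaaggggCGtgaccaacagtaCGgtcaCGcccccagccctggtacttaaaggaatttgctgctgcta
Col3a1 held 0 and Snai1 27 CpG dinucleotides in these windows, and they were gained in P12 in 5 and 6 lines. Methylation was not measured in these RNA files, so nothing is read from the letters about its part.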

How the data were processed

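RNA of 21 samples was prepared with the TruSeq Stranded mRNA kit. The authors trimmed adapters, estimated transcript counts with Salmon 0.12, which maps reads to transcripts without aligning each base, added them up per gene and deposited signal values, that is counts normalized in DESeq2 1.18 (the submitters' processing notes name mm10, CASAVA 2.17 and bcl2fastq 2.19). Such mapping can divide reads between near-identical or overlapping genes. Raw counts were not used here, and depth was estimated from the step between low values. Every column was matched to its sample by name, and sequencer models could not be assigned to samples.

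The members and the gene lists were chosen with earlier results of these data known. A pseudocount of 1 was added before log2 values were taken. limma 3.58.1 (R 4.3.3, trend, one fit of all 4 states, no covariate) was run on 19300 genes with Benjamini-Hochberg adjustment and checked on simulated data. The p-values measure the spread between lines, each sampled once per state. Same-line samples pair because they come from the same line. Same-line deviations correlated by at least 0.159 for parental and resistant, 0.337 for resistant and P12 and 0.0082 for parental and P12 cells. Their means were 0.241, 0.457 and 0.316, against -0.046, -0.090 and -0.064 between different lines. The main fit does not use this pairing, so its p-values do not test the paired differences printed with an SD. The fit with the line as a block is given where it changes a count.

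Genes are named for gains in all lines, abundance, calls, list membership (up to 4 per list), extreme P12 minus Resistant or nearness to the threshold. The lists of roles and markers rest on general knowledge. Python 3.11.15, pandas 2.3.3, numpy 2.4.6 and matplotlib 3.10.9 were used. Alternatives were other pseudocounts, no filter, upper quartile scaling, no trend, other level minimums and each line left out. Some items are not reported here.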

Additional observations from a re-analysis of the deposited data

Results flagged for a closer look

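Of 117 groups of 6 values tested for a sample far from the other 5 (38 named genes in parental, resistant and P12 cells, and 3 medians over members by line), 12 had such a sample. The threshold gives about 1 in 20 for unselected, independent groups. These genes were chosen on the same values with 1 line allowed to miss a gain, and groups of a gene share lines. The count is therefore not read against that share. Parental cells of line #9 stood high in Ddr2 (13269 normalized counts, others at most 17.1) and Prrx1 (7078, others at most 55.6). Resistant cells of line #9 stood high in Snai1 (750.1, others at most 76.7) and low in B3galt1 (2.74, others at least 274), Gpm6a (listed at 0, others at least 4436) and Vgll3 (42.5, others at least 1898). Line #7 was low in resistant Sparc (10522, others at least 99187), in P12 Otx1 (17.4, others at least 118) and in P12 Scn10a (listed at 0, others at least 27.8). P12 of line #6 was high in Lctl (329.5, others at most 11.3), and resistant cells of line #4 were low in Gm19744 (20.7, others at least 76.0). Parental Scn10a was at 1.06 in line #3, about 1 read, and listed at 0 in the other 5.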

How the results depend on the processing

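With the cell line as a replicate block, which pairs the samples of a line, 133 members were called between resistant and parental cells in place of 84, 19 between P12 and parental cells in place of 4 and 16 between P12 and resistant cells in place of 4, and the other 3 counts did not move by more than 1.5 times. Without the filter on low values the counts between P12 and parental and between P12 and resistant cells were 2 and 2, and without a trend the latter was 2. Leaving out each line in turn gave 37 to 96 members between resistant and parental cells, 1 to 10 between P12 and parental cells (10 without line #9), 1 to 6 between P12 and resistant cells, 0 to 1 between P5 and parental cells, 0 to 1 between P5 and resistant cells and 0 between P5 and P12 cells. Part of these losses follows from fewer samples and, for P5, from 2 samples in the group, and beyond this the cause was not tested. A pseudocount of 8 left 114 members, all among the 180, and leaving out a line gave 203 to 300. The pseudocount of 0.5 gave 193, upper quartile scaling 189, and resistant means of at least 100 and 10 gave 157 and 203. The median P5 minus Parental over members ranged from 1.68 without line #3 to 3.48 without line #9, the median P12 minus Resistant from -1.24 to -0.93 and the median share kept from 68.2% to 77.5% over all alternatives.

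Of 42 differences of named genes, 8 were called, and none of the 42 changed sign under any alternative. Those between P12 and parental cells were used to choose the genes, and those between P12 and resistant cells were included because they were called. Their kept sign therefore follows in large part from the choice and is not read as support. Over 504 refits of these differences, a call was lost in 39 and gained in 11, 27 of the losses on leaving out a line, and Gm19744 in P12 and Nckap5 were called in each. Upper quartile scaling moved the median of all genes by less than 0.1 log2 units in every comparison. With 6 lines and 1 sample each, a gain kept in some lines and not in others cannot be told from the spread of a single sample, and members near 3 reads in parental cells have a gain that the depth cannot bound from above.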
